A study of Mus musculus with 8 samples.

Results

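Kinesins are motor proteins that use ATP to walk along microtubules or to take microtubules apart. Mitotic kinesins build the spindle, move chromosomes and prepare the cell for cytokinesis, and most of them are made mainly in cells close to division. Transport kinesins carry organelles, vesicles and RNA along microtubules at all times, in heart muscle as in other cells. Here the kinesin genes were every protein-coding gene whose mouse symbol is Kif or Kifc followed by a number: 43 of 49315 genes in the tables, of which 38 had at least 10 counts in at least 4 libraries. Kif1bp, which matches the symbol rule, belongs to a protein that binds kinesins and has no motor, so 37 motor genes were described.

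RNA was sequenced from heart muscle cells of C57/Bl6 embryos at day 12.5, isolated and cultured, with males and females pooled. The 4 control libraries came from cells in control medium and the 4 simvastatin libraries from cells given 10 µM simvastatin, which inhibits HMG-CoA reductase, the enzyme that makes mevalonate. The comparison asks how kinesin genes respond when the mevalonate pathway, which the study tied to heart muscle cell proliferation, is inhibited. The protocol speaks of RNA from dissected hearts and the design of isolated cells, and neither states the time in simvastatin. The labels do not say whether replicates were separate cultures, so the p-values reflect only how far these libraries vary, and that variation may be technical. The libraries held 30474586 to 35215640 counts, of which 28434 to 40911 fell on kinesin genes. File headers put replicates 1 and 3 of each group in set 1 and replicates 2 and 4 in set 2. Cardiomyocyte markers (8 genes, among them Tnnt2 and Myh6) summed to between 51240 and 66720 CPM (counts per 1000000, scaled by library) in every library. Markers of fibroblasts, endothelium, epicardium and macrophages were also present, at summed levels of 209 to 2541 CPM, so the cultures held other cells as well. In bulk RNA, fewer cells of a type and less RNA per cell cannot be told apart.

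The kinesin genes divided by role. The role lists were chosen with earlier results of these data known, and Kif2a, which did not pass, was placed outside the mitotic list. All 13 kinesins of the mitotic list with enough counts fell with simvastatin and 0 rose. Of 16126 genes tested, 9.61% fell (adjusted p under 0.05 by the Benjamini-Hochberg method over all genes, quasi-likelihood test of edgeR). All 13 fell at least 2-fold, as did 4.99% of all genes. Their median log2 fold change was -1.63, against 0.01 over all genes tested. In 6 of 17 transport kinesins the groups did not overlap, as in 23.1% of all genes. Of the 17, 5 rose and 1 fell, with a median of 0.42, where 7.79% of all genes rose. Of 7 kinesins of the cilium, the centriole and signalling 1 fell and 0 rose, with a median of 0.21.

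**Figure D1:**
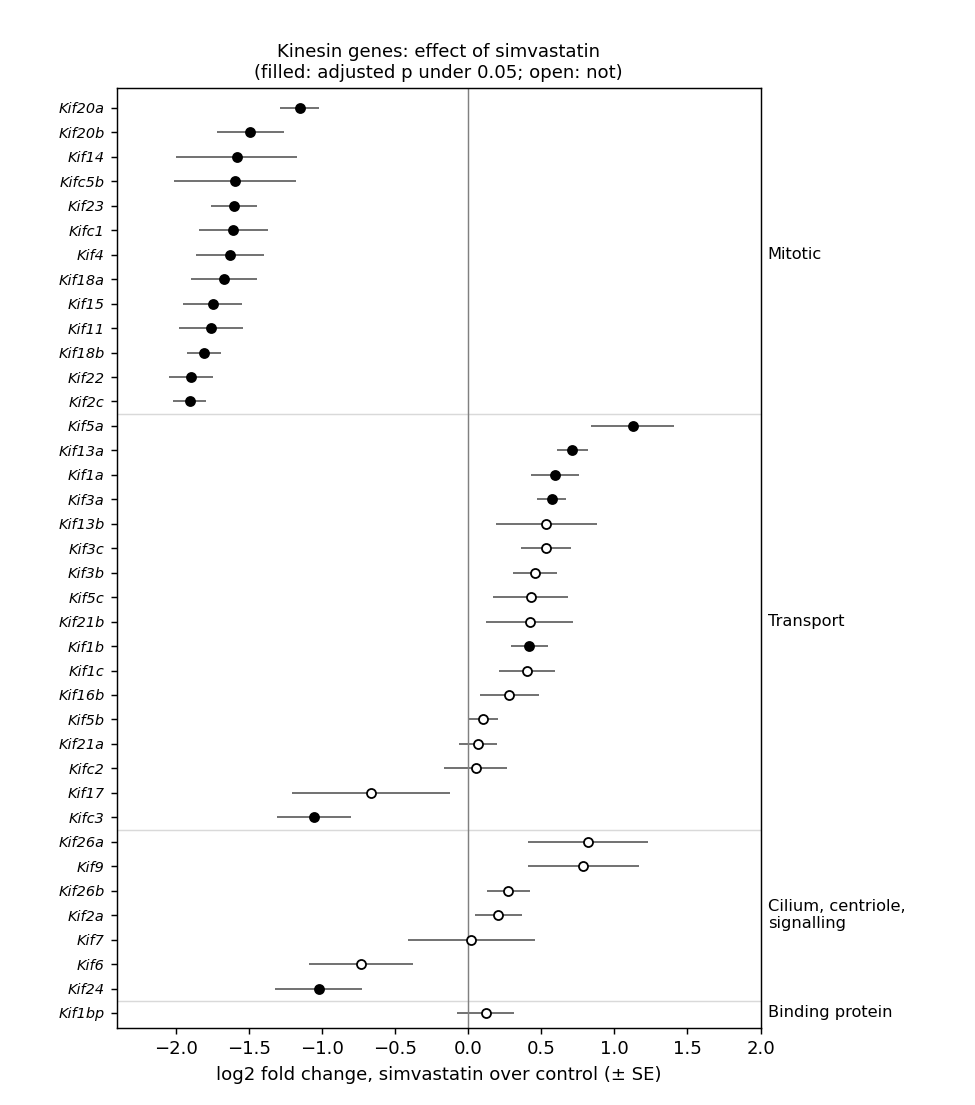
Log2 fold change of each kinesin gene with simvastatin over control (x axis, ± SE, n = 4 libraries per group), grouped by role. Filled points passed an adjusted p under 0.05. The 13 mitotic genes lie between -1.90 and -1.15. Of 17 transport genes 15 lie above 0, where 8264 of 16126 genes tested do, and 5 of the 17 rose and 1 fell at that threshold.

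Promoter sequences from RefSeq (GRCm38.p6, 250 bases before to 50 after a gene's start) matched 30 of the 38 genes by symbol. They were searched on both strands for motifs known from cell cycle genes: the cell cycle homology region CHR (TTTGAA or TTCGAA), the CCAAT box bound by NF-Y, and an E2F motif (TTTCCCGC, TTTCGCGC, TTTGCCGC or TTTGGCGC). The sequences below are the 120 bases before the RefSeq start, 5′ to 3′ on the strand of the gene, with CHR and CCAAT matches in capitals (TTCAAA and ATTGG are their reverse complements). Kif11, Kif22 and Kif15 were chosen for their CHR matches, Kif18b and Kifc1 for paired CCAAT matches, and Kif24 as a gene outside the mitotic list that fell (Kifc3, which also fell, had no promoter match). Kif13a is shown as the transport kinesin with the smallest p.
Kif11: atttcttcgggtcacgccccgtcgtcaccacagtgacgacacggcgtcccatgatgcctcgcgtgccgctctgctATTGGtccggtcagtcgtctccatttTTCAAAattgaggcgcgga
Kif22: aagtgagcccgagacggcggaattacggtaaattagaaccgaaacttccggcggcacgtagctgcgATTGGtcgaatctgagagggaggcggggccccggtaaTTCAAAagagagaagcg
Kif15: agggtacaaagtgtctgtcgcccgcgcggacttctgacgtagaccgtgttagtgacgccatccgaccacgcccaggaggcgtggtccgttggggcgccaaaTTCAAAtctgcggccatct
Kif18b: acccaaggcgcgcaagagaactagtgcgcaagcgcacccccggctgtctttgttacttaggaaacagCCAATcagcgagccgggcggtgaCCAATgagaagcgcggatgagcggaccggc
Kifc1: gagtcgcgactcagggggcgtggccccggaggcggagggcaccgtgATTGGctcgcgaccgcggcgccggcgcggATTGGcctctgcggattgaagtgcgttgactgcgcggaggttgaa
Kif24: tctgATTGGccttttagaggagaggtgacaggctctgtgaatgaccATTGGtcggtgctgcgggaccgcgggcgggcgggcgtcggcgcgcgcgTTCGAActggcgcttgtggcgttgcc
Kif13a: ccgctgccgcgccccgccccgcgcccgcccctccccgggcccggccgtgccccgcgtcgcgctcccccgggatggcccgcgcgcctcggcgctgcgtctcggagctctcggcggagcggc

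These windows lie at chr19:37376262-37376381 (plus strand), chr7:127042421-127042540 (minus), chr9:122950961-122951080 (plus), chr11:102925125-102925244 (minus), chr17:33890634-33890753 (minus), chr4:41464849-41464968 (minus) and chr13:46929719-46929838 (minus). In Kif11 and in Kif15 a CHR match covered bases -19 to -14, and in Kif22 bases -17 to -12, counted back from -1 just before the start. Kif11 and Kif22 also held a CCAAT match further up, at -45 to -41 and at -54 to -50. The E2F match of Kif15, at -27 to -20, ended where its CHR match began, and Kif18a had an E2F match at -10 to -3. Kif24 had the TTCGAA form at -26 to -21 and CCAAT matches at -74 and further up. Kif13a held none of these motifs in the 250 bases.

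Of 12 mitotic kinesin genes with a promoter sequence, 5 held a CHR match in the 250 bases before the start, against 19.6% of all genes in the table. A CCAAT match stood in 8 of the 12, against 37.5% of all genes, and an E2F match in 2, against 2.16%. Kifc1 and Kifc5b both count among the 8, though their sequences around these matches are nearly the same. Both CHR and CCAAT stood in 3 of the 12, against 7% of all genes. Of the 7 genes of the cilium, the centriole and signalling, 2 held CHR, 3 held CCAAT, 2 held both and 0 held E2F. Kif26b was 1 of those with both, and it did not pass the test. Of 11 transport kinesin genes, 1 held CHR (Kif1a), 3 held CCAAT (Kif1b, Kif3a and Kif3b) and 0 held E2F. Of these genes with a match, Kif1a, Kif1b and Kif3a rose and Kif3b did not pass. The mitotic gene Kif20b fell and held no match in the 250 bases. Within 100 bases of the start, 3 mitotic genes held CHR and 8 held CCAAT, against 7.18% and 21.6% of all genes. The RefSeq starts of Kif2c and Kif14 lie 3867 and 1505 bases inside the genes of the count tables. With only starts within 500 bases of the gene start in the count tables, 3 of 10 mitotic genes held CHR and 7 held CCAAT, against 15.7% and 36.5% of all genes. A match is a stretch of letters, and binding was not measured here.

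**Figure D2:**
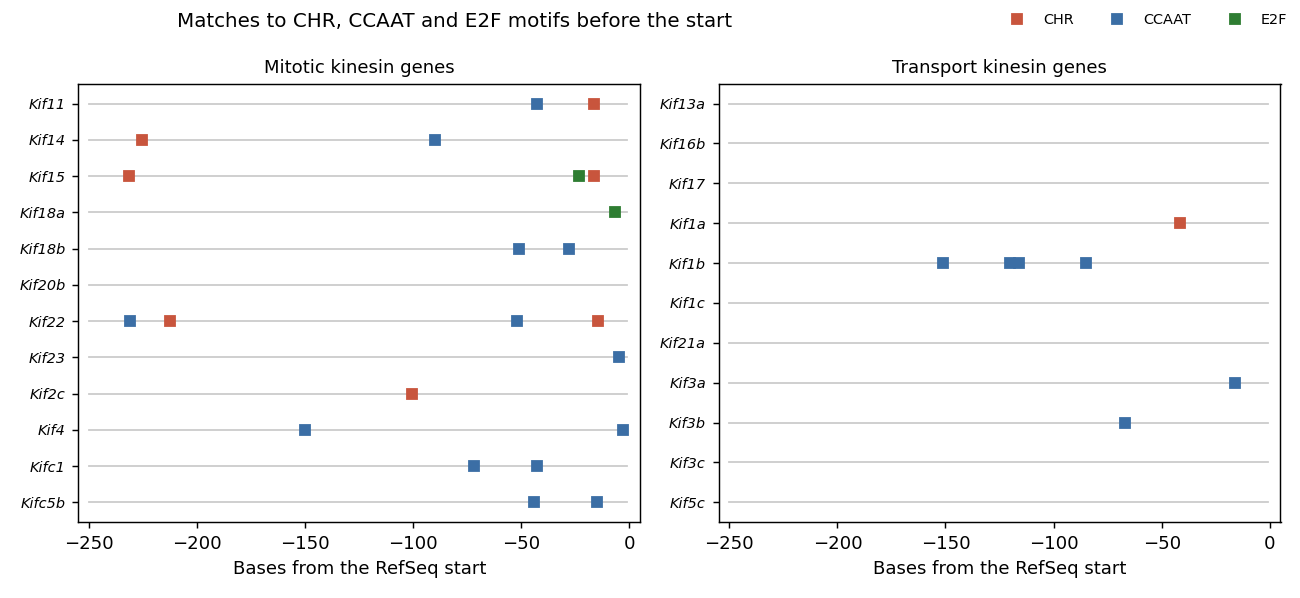
Positions of CHR, CCAAT and E2F matches in the 250 bases before the RefSeq start (x axis, bases from the start) for 12 mitotic (left) and 11 transport (right) kinesin genes. Where a gene has 2 starts in the table, as Kif1a and Kif1b do, matches of both are drawn on 1 line. CCAAT matches stood in 8 of 12 mitotic and 3 of 11 transport genes.

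Among the motors that hold the spindle poles apart, Kif11 (Eg5, chromosome 19, 37376403 to 37421859 in the files), which slides antiparallel microtubules, stood at 74.7, 64.8, 52.8 and 75.8 CPM in control replicates 1 to 4. With simvastatin it stood at 12.3, 26.8, 18.4 and 21.8 CPM in replicates 1 to 4. The groups did not overlap, and the mean was 3.38-fold lower (log2 fold change -1.76 ± 0.22, SE, n = 4 per group; edgeR adjusted p = 0.000393). Kif15, which can take over from Kif11 on parallel fibres, went from 11.2, 7.31, 7.38 and 8.19 CPM to 2.24, 2.76, 2.23 and 2.93 CPM (log2 fold change -1.75). Kifc1, a motor that walks to the minus end and draws poles together, went from 4.16, 3.55, 5.44 and 4.89 CPM to 1.13, 1.24, 1.90 and 1.65 CPM (log2 fold change -1.61). In each of these genes every simvastatin library lay below every control, as in 12.1% of all genes tested.

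Kifc5b, a close copy of Kifc1, went from 2.14, 2.63, 2.003 and 2.39 CPM to 0.693, 1.497, 0.548 and 0.263 CPM (log2 fold change -1.59 ± 0.42, adjusted p = 0.0243 by edgeR). In GENCODE transcripts 39.7% of the 50-base stretches of Kifc1 also occur in other genes, 38.6% in Kifc5b, so their counts could be divided differently between them. The Kifc5b call ended without control 2 or 4 or simvastatin 1 or 3 (replicate numbers; highest adjusted p 0.0708).

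Motors that shorten or cap microtubule ends fell as well. Kif2c (MCAK, chromosome 4, 117159639 to 117182639), which removes tubulin from microtubule ends at kinetochores, stood at 54.3, 44.7, 54.8 and 52.6 CPM in controls and at 12.98, 15.03, 13.4 and 13.7 CPM with simvastatin. Its libraries lay close together in both groups, and its fall was the greatest among the 13 (3.74-fold; log2 fold change -1.90 ± 0.11, adjusted p = 1.5e-05 by edgeR). Kif18b (chromosome 11, 102905529 to 102925124), which limits the length of astral microtubules, went from 46.8, 39.4, 43.2 and 43.3 CPM to 11.1, 11.7, 12.8 and 13.9 CPM (log2 fold change -1.80). Kif18a, which damps chromosome oscillation at metaphase, went from 13.1, 11.4, 10.4 and 15.4 CPM to 2.39, 4.23, 4.81 and 4.38 CPM (log2 fold change -1.67). In none of the 3 genes did a simvastatin library reach the lowest control. The remaining depolymerase of the mitotic list, Kif2b, had 0 counts in all libraries. Kif2a, of the same family as Kif2c, was listed with the kinesins of the cilium, the centriole and signalling. It did not pass (log2 fold change 0.21, adjusted p = 0.45 by edgeR), so the count of 13 depends on that placement.

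The chromokinesins, which bind chromosome arms, were Kif22 and Kif4. Kif22 (Kid, chromosome 7, 127027729 to 127042471), which pushes arms from the poles, stood at 85.7, 65.2, 91.9 and 80.9 CPM in controls and at 17.4, 23.5, 20.7 and 25.5 CPM with simvastatin (log2 fold change -1.89 ± 0.15, adjusted p = 3.8e-05 by edgeR). Kif4 (chromosome X, 100625737 to 100727214), which also shapes the central spindle, went from 46.1, 40.8, 32.7 and 55.3 CPM to 9.92, 19.4, 11.1 and 16.1 CPM (log2 fold change -1.63 ± 0.23). Both genes were lower in every simvastatin library. Exons of Pdzd11 on the opposite strand cover 15.1% of the exon length of Kif4, and Pdzd11 itself had a log2 fold change of 0.13 (edgeR adjusted p = 0.343).

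The remaining mitotic motors act at the central spindle and in cytokinesis. Kif23 (MKLP1), the motor of centralspindlin, went from 38.6, 28.7, 27.1 and 28.6 CPM to 10.3, 9.53, 8.81 and 11.98 CPM (log2 fold change -1.60 ± 0.15). Kif20b went from 30.5, 18.0, 14.1 and 19.2 CPM to 6.02, 8.49, 7.22 and 7.41 CPM (log2 fold change -1.49 ± 0.23). Kif14, which recruits citron kinase to the midbody, went from 3.05, 1.86, 0.916 and 1.65 CPM to 0.315, 0.835, 0.774 and 0.560 CPM (log2 fold change -1.58 ± 0.41, adjusted p = 0.0240 by edgeR). Control replicate 1 was the highest library for each of these genes. The Kif14 call, which rests on 10 to 107 counts per library, ended without control 1 or simvastatin 1 or 4 (replicate numbers; highest adjusted p 0.0601).

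Kif20a (MKLP2), which brings the Aurora B complex to the central spindle, was the most abundant mitotic kinesin per length and had the smallest fall. It stood at 121, 106, 115 and 119 CPM in controls and at 39.7, 61.8, 52.5 and 53.9 CPM with simvastatin (2.22-fold lower; log2 fold change -1.15 ± 0.13, adjusted p = 0.000232 by edgeR). The other mitotic genes had log2 fold changes of -1.49 to -1.90. Its share of the summed RPKM (CPM per kilobase of exon) of mitotic kinesins went from 28.0 to 30.1% in controls to 37.3 to 40.0% with simvastatin. Cdc23, on the opposite strand, shares 33.2% of the exon length of Kif20a and stood at 176 ± 10.97 and 173 ± 19.5 CPM (SD, n = 4 per group; log2 fold change -0.03, adjusted p = 0.899 by edgeR). No source used here gives the strand setting of the read counting, and the part of these reads in the Kif20a value was not tested.

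**Figure D3:**
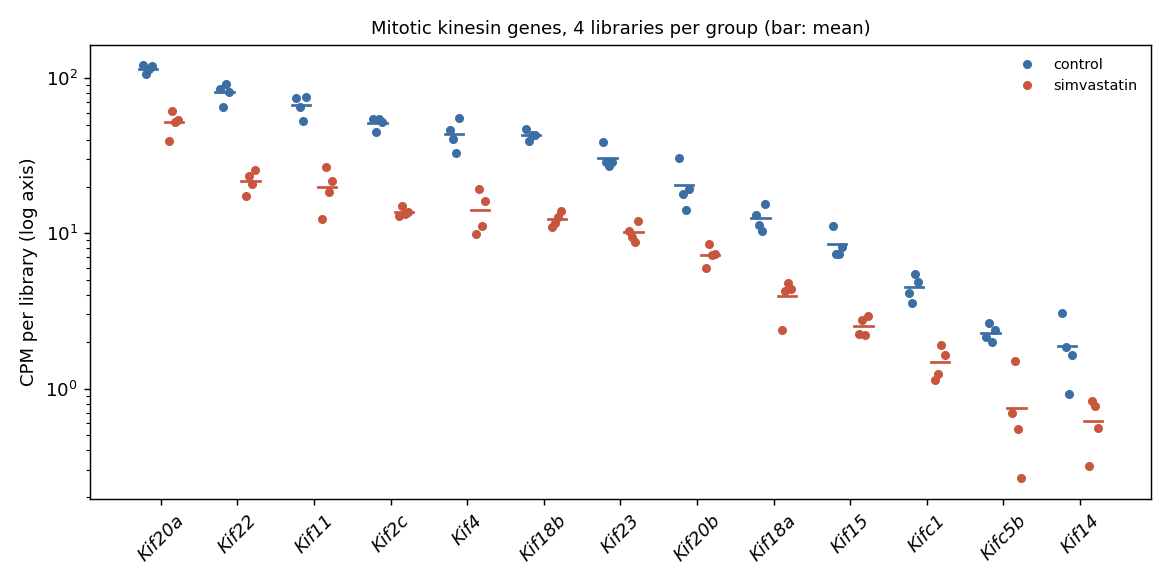
CPM of the 13 mitotic kinesin genes in each of 4 control and 4 simvastatin libraries (log axis, bars are means). In each gene all 4 simvastatin libraries lie below all 4 controls, as in 12.1% of all genes tested. Means run from 115 CPM for Kif20a to 1.87 CPM for Kif14 in controls.

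Cell type markers moved in these libraries too. Of 8 cardiomyocyte markers 1 rose, Myh7 (log2 fold change 1.15, edgeR adjusted p = 0.00255), and 0 fell. Cardiomyocyte sums ran from 51240 to 63300 CPM in controls and from 62710 to 66720 CPM with simvastatin. Markers of other cell types also moved. Of 8 markers each, 3 fell for fibroblasts (Pdgfra, log2 fold change -1.29), 3 for epicardium (Wt1, -1.98) and 2 for endothelium (Emcn, -2.23). Of 7 macrophage markers tested 3 fell. Over all genes tested 9.61% fell and 7.79% rose. Of these lists, endothelium and epicardium each had 1 marker that rose (Tek, log2 fold change 1.40, and Msln, 0.67). Their summed CPM in controls and with simvastatin ran from 1145 to 2541 and 1236 to 1440 for fibroblasts, 265 to 409 and 319 to 346 for epicardium, 226 to 306 and 209 to 271 for endothelium, and 348 to 439 and 300.1 to 395 for macrophages. Of 6 red blood cell markers tested 3 rose, from a sum of 8.49 to 13.8 CPM to 17.2 to 40.6 CPM. The part of these cells in the fall of the mitotic kinesins was not tested.

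All 13 mitotic genes had a more negative log2 fold change in set 1 than in set 2, with medians of -1.87 and -1.48. These genes were read from the same libraries, so they are not separate observations of a set difference. The share over all genes was not counted. The difference between sets was tested with a treatment by set term, and 0 of the 13 passed, where 0.0558% of all genes did. Kif22 alone of these had an unadjusted p under 0.05 for that term (edgeR adjusted p = 0.254), with log2 fold changes of -2.24 in set 1 and -1.58 in set 2. Set 1 alone called 12 of the 13 and set 2 alone also 12, where 9.82% and 18.3% of all genes were called, and 5.91% and 11.5% fell.

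Partners of the mitotic motors fell alongside them: 13 of 15 genes fell, against 9.61% of all genes, and 0 rose, and the median was -1.64 (log2 fold change). Cenpe, a kinesin of the kinetochore outside the symbol rule, averaged 26.9 ± 6.36 CPM in controls and 9.33 ± 2.78 CPM with simvastatin (SD, n = 4 per group; log2 fold change -1.52). Aurkb, the kinase that Kif20a carries, had -2.30, and Cdca8 and Birc5 of the same complex had -1.75 and -1.74. Incenp, the scaffold of that complex, had -1.43. The members that did not pass were Ckap5 and Numa1, with log2 fold changes of -0.34 and -0.07. In set 2 alone Ckap5 did pass (log2 fold change -0.35, edgeR adjusted p = 0.0376).

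Transport kinesins were higher in most cases, by smaller steps. Kif13a (chromosome 13, 46749087 to 46929718), which carries endosomes and mannose 6-phosphate receptors, stood at 47.0, 47.9, 48.2 and 54.0 CPM in controls and at 93.9, 80.1, 77.3 and 71.9 CPM with simvastatin. Every simvastatin library was above every control, as in 11% of all genes tested, and the mean was 1.64-fold higher (log2 fold change 0.71 ± 0.11, adjusted p = 0.0012 by edgeR). Its near relative Kif13b stood at 5.32, 6.39, 1.72 and 4.69 CPM and at 4.82, 7.69, 8.16 and 5.60 CPM, and did not pass (log2 fold change 0.54 ± 0.35, adjusted p = 0.346 by edgeR).

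The motor of intraflagellar transport is a trimer of KIF3A, KIF3B and the adaptor KAP3, which Kifap3 encodes. Kif3a (chromosome 11, 53567379 to 53601967) stood at 31.4, 32.2, 27.0 and 32.1 CPM in controls and at 46.7, 45.8, 44.5 and 45.5 CPM with simvastatin (1.49-fold higher; log2 fold change 0.57 ± 0.10, adjusted p = 0.0025 by edgeR). Kifap3 rose from 35.6 ± 6.43 to 57.0 ± 6.42 CPM (SD, n = 4 per group; log2 fold change 0.68, adjusted p = 0.00812 by edgeR). Kif3b stood at 22.3, 24.3, 16.1 and 20.9 CPM and at 23.9, 31.0, 29.1 and 30.9 CPM (log2 fold change 0.46 ± 0.15, adjusted p = 0.0585 by edgeR). For Kif3b the groups overlapped by a small margin, between control replicate 2 and simvastatin replicate 1, and DESeq2 gave an adjusted p of 0.0244. Kif3b and Kif3c both passed with set as a term in edgeR, which made 7 transport kinesins that rose. Kif3c, which can replace KIF3B in such dimers, had means of 18.7 ± 4.55 and 27.1 ± 2.80 CPM (log2 fold change 0.53, adjusted p = 0.0545 by edgeR and 0.0198 by DESeq2). An antisense gene, 1110002L01Rik, covers 38.2% of the exon length of Kif3c and had a log2 fold change of -0.12. Kif17, the other motor of this family, had 2 to 15 counts per library and did not pass (log2 fold change -0.66 ± 0.54).

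Family 3 motors carry synaptic vesicle precursors, mitochondria and dense-core vesicles. Kif1a (chromosome 1, 93015464 to 93101951) stood at 55.7, 79.1, 51.7 and 65.4 CPM in controls and at 86.3, 120, 92.5 and 80.8 CPM with simvastatin (log2 fold change 0.59 ± 0.16, adjusted p = 0.0295 by edgeR). Kif1b (chromosome 4, 149176319 to 149307693) stood at 46.0, 39.5, 42.4 and 50.9 CPM and at 67.5, 65.4, 52.5 and 53.5 CPM (log2 fold change 0.42 ± 0.12, adjusted p = 0.0416 by edgeR). The margin between the groups was narrow for both: control replicate 2 at 79.1 CPM against simvastatin replicate 4 at 80.8 CPM in Kif1a. The Kif1a call ended without control 1, 3 or 4 or simvastatin 2 or 3 (replicate numbers; highest adjusted p 0.0744). The Kif1b call held only without control replicate 4 among the 8 fits that left out a library (adjusted p up to 0.119). Kif1c and Kif16b did not pass, with log2 fold changes of 0.40 ± 0.19 and 0.28 ± 0.20.

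Conventional kinesin, family 1, has 3 heavy chain genes. Kif5b, the form made in most tissues, was the most abundant kinesin of the culture per length, at 34.3 ± 3.63 RPKM in controls and 36.9 ± 2.76 RPKM with simvastatin (SD, n = 4 per group). It stood at 261, 266, 214 and 274 CPM and at 250, 281, 263 and 297 CPM, with overlapping groups (log2 fold change 0.10 ± 0.10, adjusted p = 0.56 by edgeR). Kif5a (chromosome 10, 127225696 to 127263363), best known from neurons, was low and rose from 0.883, 0.769, 0.973 and 0.841 CPM to 1.13, 2.505, 2.13 and 1.81 CPM (log2 fold change 1.13 ± 0.28, adjusted p = 0.0193 by edgeR). With 26 to 87 counts per library, the Kif5a call ended without control 2 or simvastatin 2 or 3 (replicate numbers; highest adjusted p 0.0637). Kif5c was as low, at 0.993 ± 0.0828 and 1.34 ± 0.327 CPM, and did not pass (log2 fold change 0.43).

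Markers of neurons and neural crest were listed because transport kinesins are abundant in nerve cells. Of 8 such markers 6 were tested, 2 rose and 0 fell, where 7.79% of all genes rose. Their summed level was 34.1 to 51.5 CPM in controls and 77.99 to 96.8 CPM with simvastatin, most of it Tubb3 (log2 fold change 0.98). Of these markers 5 had a mean under 1 CPM, and the defining gene Sox10 was at 0 in 4 libraries. The part of such cells in the rise of Kif1a, Kif5a and the other transport kinesins was not tested.

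Kifc3 (chromosome 8, 95099828 to 95202812), a minus-end motor of adherens junctions and the Golgi, was the transport kinesin that fell. It stood at 6.61, 6.81, 13.99 and 7.80 CPM in controls and at 4.92, 4.17, 3.74 and 4.15 CPM with simvastatin (log2 fold change -1.05 ± 0.25, adjusted p = 0.0156 by edgeR). Control replicate 3 was well above the other controls, yet every simvastatin library was below all of them. The call ended without simvastatin replicate 3 (adjusted p = 0.0511). Kifc2, Kif21a and Kif21b did not pass, with log2 fold changes of 0.05 ± 0.21, 0.07 ± 0.13 and 0.42 ± 0.30.

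**Figure D4:**
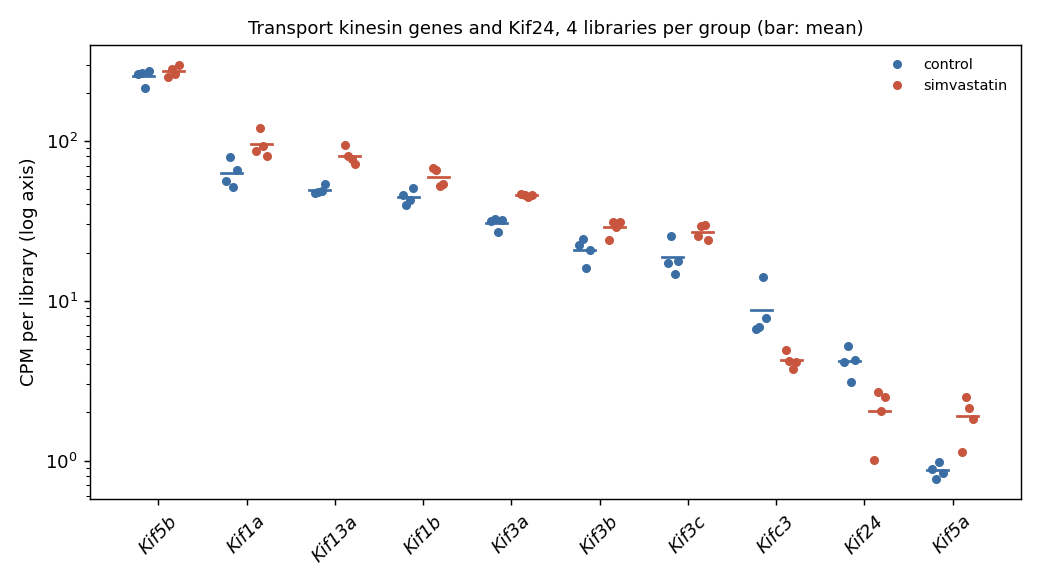
CPM per library (log axis, bars are means, n = 4 per group) of Kif24, of the transport kinesins that passed the test, and of Kif5b, Kif3b and Kif3c, which did not. Simvastatin libraries lie above all controls in Kif1a, Kif13a, Kif1b, Kif3a and Kif5a and below all controls in Kifc3 and Kif24.

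Kinesins of the cilium, the centriole and signalling mostly did not pass. Kif24, which trims centrioles and holds back cilium growth in cycling cells, was the exception. It stood at 4.13, 5.21, 3.12 and 4.24 CPM in controls and at 1.01, 2.68, 2.03 and 2.502 CPM with simvastatin (log2 fold change -1.02 ± 0.30, adjusted p = 0.0384 by edgeR). That call ended without control 1, 2 or 4 or simvastatin 1 or 3 (replicate numbers; highest adjusted p 0.0976). Kif2a, a depolymerase of family 13 like Kif2c, stood at 18.4, 11.2, 14.5 and 13.3 CPM and at 18.8, 15.9, 15.8 and 15.9 CPM (log2 fold change 0.21 ± 0.16, adjusted p = 0.45 by edgeR). Within that family Kif2c and Kif24 fell and Kif2a did not pass, though the difference between the genes was not tested. Dimt1 on the opposite strand covers 17.4% of the exon length of Kif2a and had a log2 fold change of -0.42 (edgeR adjusted p = 0.0769).

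Kif26b, a signalling kinesin without ATPase activity, was the most abundant of this group per length. It stood at 64.9, 69.5, 62.8 and 79.2 CPM in controls and at 92.9, 72.8, 102 and 66.2 CPM with simvastatin (log2 fold change 0.27 ± 0.15, adjusted p = 0.25 by edgeR). Kif26a had 0.82 ± 0.41, Kif9, a motor of motile cilia, 0.79 ± 0.38 and Kif6 -0.73 ± 0.36. Kif7, the ciliary regulator of Hedgehog signalling, had 0.02 ± 0.44, and its antisense neighbour 9330171B17Rik, which covers 19.1% of its exon length, had 3 counts in all. These 4 genes had means under 3 CPM in both groups and did not pass. Below the count minimum lay Kif12, Kif19a, Kif27 and Kif28, with 3, 39, 35 and 25 counts over all libraries. Kif1bp, the kinesin-binding protein, stood at 4.17 ± 0.79 and 4.53 ± 0.658 CPM (log2 fold change 0.12).

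Per length, the makeup of the kinesin pool changed. Mitotic kinesins made up 51.5 to 57.7% of the summed RPKM of the 37 motor genes in the 4 control libraries and 21.4 to 27.5% in the 4 simvastatin libraries. Their summed RPKM was 105 ± 8.79 in controls and 35.4 ± 5.76 with simvastatin (SD, n = 4 per group). Transport kinesins summed to 76.1 ± 6.82 and 95.2 ± 3.46 RPKM. The most abundant kinesins per length in controls were Kif5b, Kif20a, Kif22, Kif11, Kif18b and Kif2c, in that order, so 5 of the first 6 were mitotic. With simvastatin Kif5b and Kif20a still led, followed by Kif3a, Kif13a and Kif1a at 12.7 ± 0.246, 11.8 ± 1.36 and 10.2 ± 1.89 RPKM. Kif20a, at 13.7 ± 2.41 RPKM, did not stand apart from Kif3a and Kif13a beyond its SD.

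**Figure D5:**
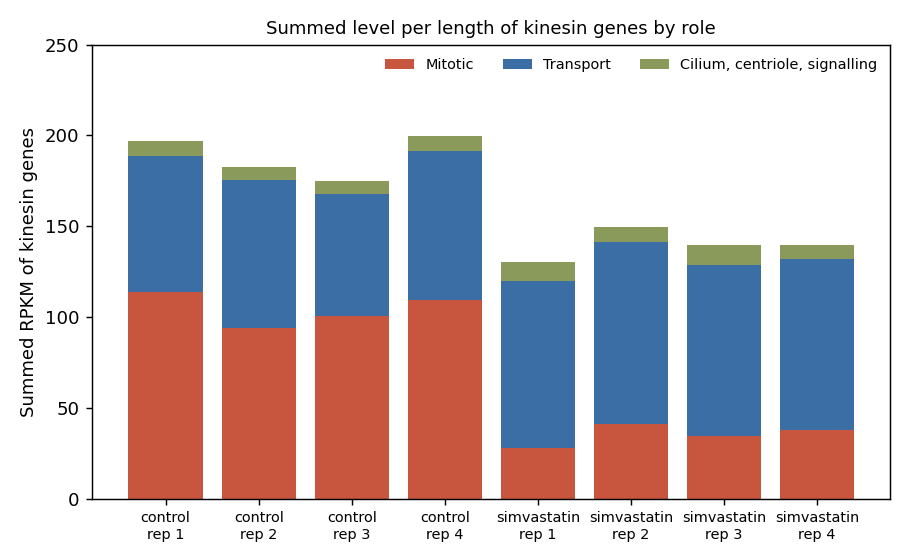
Summed RPKM of 37 kinesin motor genes in each library (y axis from 0), stacked by role. The mitotic part ran from 94.3 to 114 RPKM in controls and from 27.9 to 41.3 RPKM with simvastatin, and the transport part from 66.9 to 81.5 and from 92.3 to 100 RPKM.

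Of the proteins that tie transport kinesins to cargo, 15 were tested, 2 rose and 0 fell, where 7.79% of all genes rose. Besides Kifap3 the gene that rose was Klc4, a light chain of family 1, from 56.2 ± 4.12 to 82.6 ± 3.46 CPM (SD, n = 4 per group; log2 fold change 0.56, adjusted p = 0.00202 by edgeR). Over the 15 genes the median log2 fold change was 0.12. Of 18 genes of dynein, the motor that walks the other way, and its activator dynactin, 3 rose and 0 fell, with a median of 0.26. Dctn2 had a log2 fold change of 0.42, Dync1i2 0.37 and the heavy chain gene Dync1h1 0.46. Of the 8 fits that left out a library, the Dync1i2 call ended without simvastatin replicate 2 or 3 (adjusted p up to 0.0627), and the Dync1h1 call also without control 1 or 2 or simvastatin 1 (replicate numbers; highest adjusted p 0.0722). Of 14 genes of the intraflagellar transport particles that KIF3 motors move, Ift22 rose (log2 fold change 0.51 ± 0.16, adjusted p = 0.0458 by edgeR) and 0 fell, with a median of 0.16. A count of 1 in 14 lies near the 7.79% of all genes that rose. The Ift22 call ended in 7 of the 8 fits that left out a library, all but that without simvastatin replicate 2.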

How the data were processed

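RNA of 4 control and 4 simvastatin libraries was analysed from raw counts per Ensembl gene, 1 deposited table per library. The authors made these counts with Trimmomatic 0.36, STAR 2.5.2b and featureCounts of Subread 1.5.2 on GRCm38 (mm10), per the submitters' processing notes. No source used here gives the annotation release or the strand and multi-mapping settings. Symbols came from GENCODE M21, which matched 99.3% of gene IDs.

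Counts of all genes were fitted together in edgeR 4.0.16 (R 4.3.3, TMM scaling, filterByExpr, glmQLFit and glmQLFTest on treatment, two-sided), and p-values were Benjamini-Hochberg adjusted over the 16126 genes tested, with a threshold of 0.05. CPM was TMM-scaled, and RPKM used the exon lengths in the count tables. The set named in the file headers entered an interaction fit, and what a set was is not in the labels. DESeq2 1.42.0, limma-voom (limma 3.58.1), other scalings and filters, each set alone, a replicate block and leaving out each library were alternatives. The choice of promoter starts within 500 bases was added after seeing the data. Shared sequence was counted as 50-base stretches of GENCODE transcripts.

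The members, role lists, partner lists and markers were chosen with earlier results of these data known. Values per library are given for genes that passed the test and the 3 highest per length of each role. Of each partner list, up to 4 genes that passed are named, those with the smallest p where more passed, and Cenpe always. The fit was tested on simulated data with the real libraries' means, 1 common spread for all genes (coefficient of variation 0.2217) and no set difference. Over 15917 genes it called 18.2% of simulated 1.5-fold changes, 64.6% of 2-fold changes and 100% of 4-fold changes, with 8 false among 127 calls. Real genes differ in spread, so these shares need not hold for a single gene. No libraries of a group were near-copies (lowest chi-square per degree of freedom 16.54). Protein sequences were not used here.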

Additional observations from a re-analysis of the deposited data

Results flagged for a closer look

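In 5 of 76 gene and treatment groups of 4 libraries, 1 library stood apart from the other 3 beyond Dixon's 95% critical value, where chance flags about 1 in 20 groups. Control replicate 1 was high for Kif23, at 38.6 CPM against 27.1 to 28.7 CPM in the other controls. Control replicate 3 was low for Kif3a, at 27.0 CPM against 31.4 to 32.2 CPM, and high for Kifc3, at 13.99 CPM against 6.61 to 7.80 CPM. Simvastatin replicate 1 was high for Kif1c, at 14.2 CPM against 9.58 to 10.3 CPM, and for Kif2a, at 18.8 CPM against 15.8 to 15.9 CPM. The calls of Kif23, Kif3a and Kifc3 held without these control libraries.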

How the results depend on the processing

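All 13 mitotic kinesins fell or had values below 0 under each of 18 alternatives that gave a value (Kif14 had none with the 1 CPM filter), and their median was -1.87 in set 1 alone. With 1 library left out 11 to 13 of them fell (11 without simvastatin replicate 1). Transport kinesins that rose numbered 7 with set as a term, 3 with the replicate block and 2 in set 1 alone, and 2 to 5 when 1 library was left out. Those that fell numbered 0 in set 1 alone and 0 to 1 when 1 library was left out. Kif24 did not pass in set 1 alone, leaving 0 of its list, and 0 to 1 fell when 1 library was left out. In that list 1 gene rose in set 1 alone, and the median was -0.24 in set 2 alone. Cargo adaptors that fell numbered 2 in set 2 alone and 0 to 1 with 1 library left out. The mitotic partners' median was -1.94 in set 1 and -1.43 in set 2.

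Dynein and dynactin genes that rose numbered 5 with library totals alone, 1 with the replicate block, 6 with set as a term, 1 in set 1 alone and 1 to 3 with 1 library left out. Their median was 0.20 in set 2 alone and 0.20 to 0.29 with 1 library left out. Of the intraflagellar transport genes 1 fell with a 1 CPM filter, with set as a term, in set 2 alone and by DESeq2. In that list 0 rose with no filter, with the replicate block, in either set alone and by limma-voom, and 0 to 1 with 1 library left out. Over all genes 979 fell and 648 rose in set 1 alone, 817 to 1115 rose with 1 library left out (817 without simvastatin replicate 3), and the median was -0.11 with no filter. CHR matches stood in 3 mitotic promoters within 100 bases and in 3 with starts near the gene start, and in 0 transport promoters with such starts.

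Signs turned for genes that had not passed. In set 2 alone Kif16b had -0.0399, Kifc2 -0.36, Kif26a -0.24, Kif26b -0.10 and Kif7 -0.24. The Kif7 log2 fold change was -0.0114 with set as a term, and -0.2746 to 0.2052 with 1 library left out, below 0 without control replicate 2 or simvastatin replicate 1 or 3. Kifc2 had -0.03 without control replicate 1 and -0.10 without simvastatin replicate 3. The cause was not tested for any of these.

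Same-numbered libraries did not deviate together (correlations -0.143, 0.0452, 0.133 and -0.162), so the numbers were not taken to pair samples. With the replicate block 12 mitotic kinesins fell. Few counts limit Kif14, Kifc5b, Kif5a and Kif17.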

Other observations

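Kif26a and Kif26b, which encode kinesins without ATPase activity, had positive log2 fold changes in set 1 and negative ones in set 2. Kif26a had a log2 fold change of 1.96 in set 1 and -0.24 in set 2 (treatment by set term, edgeR adjusted p = 0.104). Kif26b had 0.59 in set 1 and -0.10 in set 2 (edgeR adjusted p = 0.131). In set 2 alone neither gene passed (edgeR adjusted p = 0.698 for Kif26a and 0.587 for Kif26b). In set 1 alone Kif26b did not pass either (edgeR adjusted p = 0.0515). Neither difference passed after adjustment over all genes, where 11.5% of genes had an unadjusted p under 0.05 for that term.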
